A study of Mus musculus with 4 samples.

Results

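Among 10522 cells from the epithelium of the mouse distal colon and small intestine, 279 carried the transcripts of cell division but almost none of the transcripts of secretory lineage factors. Cells were chosen by their UMIs (unique molecular identifiers, 1 per captured RNA molecule). A barcode was kept if it showed 500 genes or more and no more than 20% of its UMIs were mitochondrial. A cell was taken as mitotic when 10 genes of the G2 and M phases (Mki67, Top2a, Cenpf, Birc5, Ube2c, Ccnb1, Ccnb2, Cdc20, Cdk1 and Nusap1) together had at least 5 UMIs per 10000 of the cell. It was a member of the group described here when Atoh1, Spdef and Creb3l1, 3 transcription factors of secretory cells, together had 0 or 1 raw UMIs. The cells thus stand for mitotic cells with at most 1 detected UMI of these factors. Below, cells without factors had 0 or 1 of these UMIs, and cells with factors had 2 or more. The 13 genes above chose the members, so the values of those genes are a description and not a finding.

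The study profiled single cells of RedMUC298trTg mice, 6 to 8 weeks old, which carry an mCherry reporter of goblet cells. The distal colon gave 2 libraries (DC 1 and DC 2), and section 8 of the small intestine gave 2 more (Si8 1 and Si8 2). The labels call all 4 goblet cells, and they name both the presence and the absence of mCherry as sort criteria, so the sort behind a given library is unknown from the sources used here. The tissue was treated with EDTA and DTT, then with collagenase and DNase, and live cells were sorted, with no treatment that sets the libraries apart other than the region. How many mice were pooled in a library is not given either, so the p-values below measure only the spread between libraries, which may be technical.

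In the intestinal crypt, stem cells and their dividing daughters keep Wnt and Notch signalling active. A daughter that escapes Notch signalling switches on Atoh1 and becomes a secretory progenitor, in which Spdef and Creb3l1 then drive the goblet programme. Daughters that stay under Notch signalling keep Hes1, divide several more times and become absorptive cells. The genes that separate colon from small intestine, such as the Hox genes and Cdx2, are set in the embryo and kept by the stem cells.

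Most of the mitotic genes that chose the cells share elements in their promoters. Mitotic genes are known to be held back outside G2 and M by a complex that binds the cell cycle homology region, with the letters TTTGAA, often near CCAAT boxes bound by NF-Y. TTTGAA or its reverse complement, TTCAAA, lay within 250 bases upstream of the start of 6 of the 10 genes, against 18.3% of all 27025 genes with a promoter in the table. CCAAT or its reverse complement, ATTGG, lay there in 8 of the 10, against 37.5%, and both elements in 6, against 6.45%. Birc5 and Nusap1 held neither. In a list of 39 spindle and kinesin genes, 34 had a promoter in the table, and 32.4% of these held both, while for 39 of 50 DNA replication genes the share was 12.8%. Among 26 G2/M kinase and checkpoint genes, 18 had a promoter, and TTTGAA and both elements together were each found in 22.2% of these. CCAAT, with or without TTTGAA, was in 67.6% of the spindle and kinesin genes, 64.1% of the replication genes and 77.8% of the G2/M genes. Motifs were searched on both strands, and a match describes the letters alone. The 120 bases before the start of 4 of the genes are shown because they are the parts in which the shared elements lie close together. They come from RefSeq (GRCm38.p6), are written 5′ to 3′ on the gene's own strand, and have the elements of either kind in capitals.
Cdk1 (chr10:69352913-69353032, minus strand): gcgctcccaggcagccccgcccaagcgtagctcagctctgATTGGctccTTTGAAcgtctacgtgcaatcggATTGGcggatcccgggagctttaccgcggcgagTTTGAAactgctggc
Top2a (chr11:99024190-99024309, minus strand): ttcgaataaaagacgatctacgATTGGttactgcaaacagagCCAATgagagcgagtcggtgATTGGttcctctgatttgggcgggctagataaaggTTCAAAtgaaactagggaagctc
Ube2c (chr2:164769809-164769928, plus strand): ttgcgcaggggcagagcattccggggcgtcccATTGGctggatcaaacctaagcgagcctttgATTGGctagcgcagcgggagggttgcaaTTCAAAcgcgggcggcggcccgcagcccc
Cdc20 (chr4:118437344-118437463, minus strand): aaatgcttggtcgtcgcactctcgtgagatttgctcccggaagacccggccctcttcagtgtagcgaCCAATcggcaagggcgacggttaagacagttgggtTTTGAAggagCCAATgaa

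The members numbered 8 in DC 1, 83 in DC 2, 27 in Si8 1 and 161 in Si8 2. They were 0.430% and 1.69% of the kept cells in DC, against 1.79% and 7.20% in Si8. All mitotic cells, members included, numbered 401 and 1093 in DC, against 158 and 599 in Si8. The members were thus 2.00% (exact 95% binomial interval 0.865 to 3.89) of the mitotic cells in DC 1 and 7.59% (6.09 to 9.33) in DC 2, against 17.1% (11.6 to 23.9) in Si8 1 and 26.9% (23.4 to 30.6) in Si8 2. Both Si8 libraries lay above both DC libraries, with a mean of 4.79% ± 3.96 in DC and 22.0% ± 6.92 in Si8 (SD, n = 2 each) and a difference of -17.2 points. The exact two-sided permutation test gave p = 0.333, the smallest value that 2 against 2 libraries allow. Intervals cover counting error only. The rule cuts raw UMIs, and DC members were shallower, with a median of 9812 and 12294 UMIs per cell, against 22832 and 22324 in Si8. When every cell was first thinned to 5000 UMIs, the shares became 27.0% and 46.5% in DC, against 49.4% and 67.8% in Si8, still without overlap and with the same p. As shares of all thinned cells, the members were 6.08% and 10.5% in DC, against 6.00% and 17.6% in Si8, so there the regions overlapped. Thinning left 1727 of 1859 and 4730 of 4917 kept cells in DC, against 1333 of 1509 and 2237 of 2237 in Si8.

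The secretory factors were spread differently over the mitotic cells of the 2 regions. In DC few mitotic cells lay at the start of the scale, with 5 cells at 0 UMIs, 3 at 1 and 11 at 2 in DC 1, and 27, 56 and 82 in DC 2. In Si8 2 the cells with 0 UMIs were the most numerous of these, with 90 cells, 71 with 1 and 30 with 2, and in Si8 1 the numbers were 15, 12 and 12. The members formed a peak at the start of the distribution in Si8 2. In Si8 1 the fullest bin was at 9 UMIs, with 16 cells, and in both DC libraries the members lay at the thin end. Members with 0 factor UMIs were 5 of 8 and 27 of 83 in DC, against 15 of 27 and 90 of 161 in Si8. The lowest mitotic score inside the threshold was 5.77, 5.38, 5.70 and 5.11 UMIs per 10000 in DC 1, DC 2, Si8 1 and Si8 2, and the highest outside it 4.08, 4.77, 4.53 and 4.95.

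**Figure D1:**
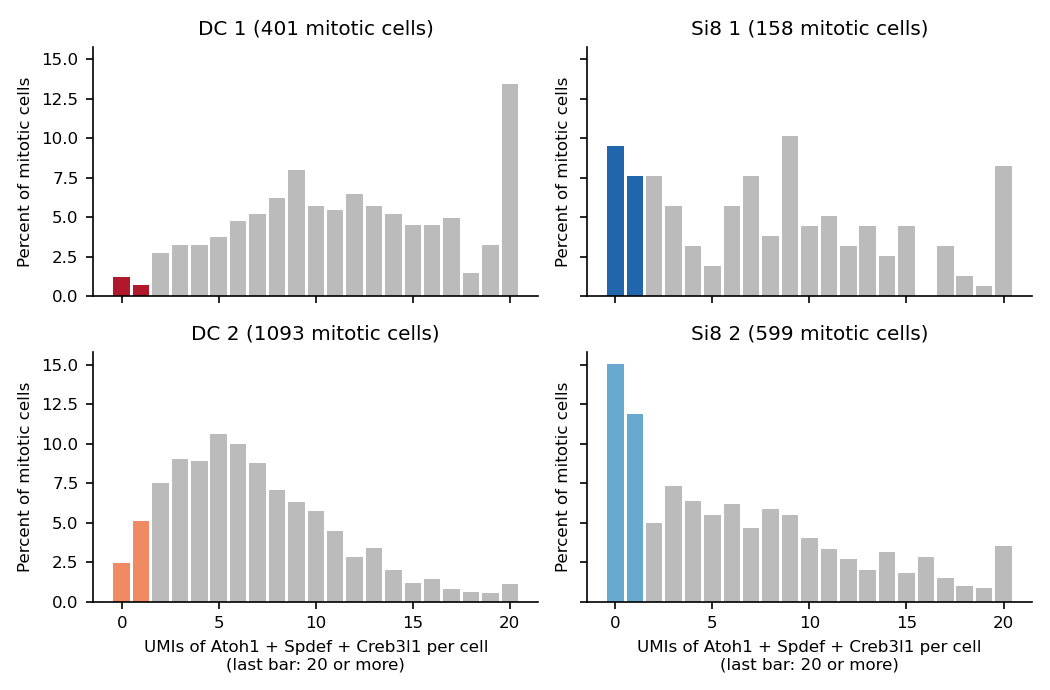
Percent of mitotic cells by the number of UMIs of Atoh1, Spdef and Creb3l1 per cell, 1 panel per library with DC on the left and Si8 on the right; the coloured bars at 0 and 1 are the members. The coloured bars hold 8 of 401 and 83 of 1093 mitotic cells in DC, against 27 of 158 and 161 of 599 in Si8.

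The transcript of Agr2, a protein disulfide isomerase needed for mucin folding, was higher in mitotic cells with many factor UMIs than in those with none in all 4 libraries. In cells with 0 factor UMIs its median was 9.75 and 13.8 UMIs per 10000 in DC, against 3.75 and 7.72 in Si8. In cells with 9 or more factor UMIs it was 66.9 and 90.8 in DC, against 218 and 184 in Si8. The distance between the ends of the scale was thus wider in Si8. In cells with 1 factor UMI the median was 23.0 and 21.1 in DC, against 4.71 and 7.66 in Si8. In cells with 2 factor UMIs, just outside the rule, it was 17.4 and 23.1 in DC, against 7.85 and 14.3 in Si8. In cells with 3 or 4 it was 16.4 and 42.8 in DC, against 47.1 and 92.5 in Si8. In both Si8 libraries the step to 3 or 4 was the largest ratio between neighbouring bins, and in DC 1 the medians did not increase between 1 and 4 factor UMIs.

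**Figure D2:**
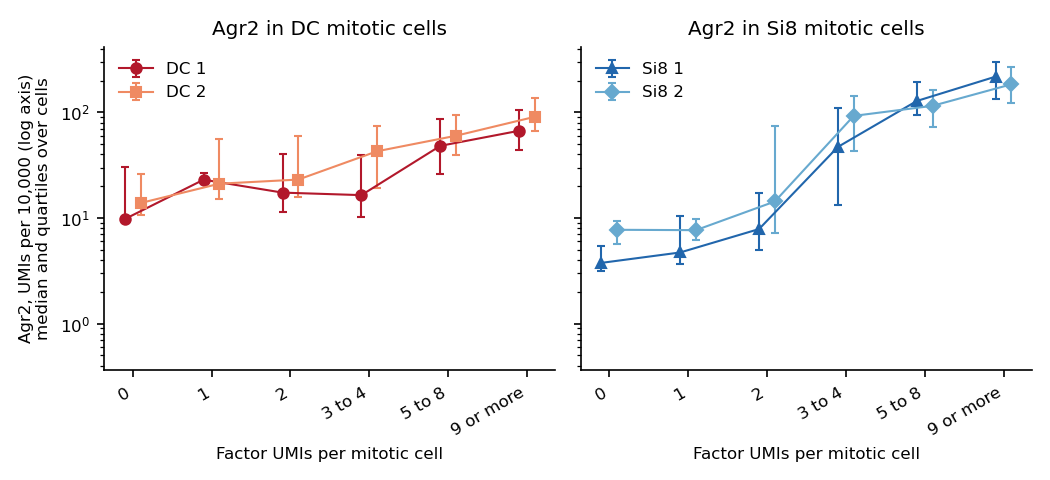
Agr2 in mitotic cells, as UMIs per 10000 on a log axis, by the number of factor UMIs per cell, with DC on the left and Si8 on the right; points are medians over the cells of a library and bars run between the quartiles. The medians at 0 UMIs are 9.75 and 13.8 in DC, against 3.75 and 7.72 in Si8, and those at 9 or more are 66.9 and 90.8 in DC, against 218 and 184 in Si8.

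Mki67, Top2a and Cenpf are part of the rule, so their levels describe the members and cannot check the label of the cells. Mki67, a surface protein of mitotic chromosomes, had UMIs in 6 of 8 and 73 of 83 members in DC, against 25 of 27 and 149 of 161 in Si8. Among non-mitotic cells without factors the share was 6.52% and 10.1% in DC, against 6.43% and 22.9% in Si8. Top2a, the topoisomerase that untangles replicated chromosomes, and Cenpf, a kinetochore protein, separated the classes in the same way. Among the 10 mitotic genes of the rule, Mki67 had the higher values in both DC libraries, with 266 and 327 CPM (counts scaled to a library's own total), against 192 and 223 in Si8. Cdc20 (63.3 and 117 CPM in DC, 206 and 180 in Si8), Ccnb2 (127 and 172 in DC, 198 and 179 in Si8) and Birc5 (190 and 272 in DC, 366 and 331 in Si8) were lower in both. The remaining 6 mitotic genes overlapped between the regions. The members' median mitotic score was 10.5 and 18.0 per 10000 in DC, against 17.9 and 18.2 in Si8, so only DC 1 stood apart.

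Several facts bear on all results below. DC 1 held 8 members with 79006 UMIs in all, so that 1 UMI there equals 12.7 CPM, and DC 2, Si8 1 and Si8 2 held 1068880, 636996 and 3724662 UMIs. The median share of mitochondrial UMIs in members was 8.44% and 6.01% in DC, against 4.42% and 5.97% in Si8. Among the barcodes with the highest doublet scores was 1 member, in Si8 2, and the libraries shared 1 to 16 barcodes per pair, none of them a member in both. Goblet, Paneth and absorptive transcripts were present in nearly every droplet of Si8: in cells with at least 20 UMIs per 10000 of tuft cell markers, a cell type that should lack them, Reg3b had UMIs in 11 of 11 and 9 of 10 cells, Defa24 in 10 of 11 and 10 of 10, and Tff3 in all. Their median depth was 10144 and 16000 UMIs. All 188 Si8 members held UMIs of these 3 genes, so a UMI of them in a member is not read as expression. Of 26 immune markers, DC 1 members held none, and their summed level was 74.8 CPM in DC 2, 7.85 in Si8 1 and 12.4 in Si8 2. Of 18 stromal markers the summed level was 25.3 and 14.0 CPM in DC, against 7.85 and 5.91 in Si8. A single DC 2 member carried most of the immune signal, with 43.2 UMIs per 10000 of the immune list, 108 UMIs of Vim and 56 of Irf8, but 4 of Epcam and 0 of Hoxb13. Results that rest on it are given without it as well.

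The members of the 2 regions were compared on UMIs summed per library, with edgeR's quasi-likelihood test and Benjamini-Hochberg adjustment over 7673 genes. Fold changes are DC minus Si8 on the log2 scale, and a gene is called at an adjusted p under 0.05. Of the tested genes 759 (9.89%) were called higher and 442 (5.76%) lower in DC, 15.7% in all. With 2 libraries per region, 53.0% of all tested genes had no overlap between regions. The call count rested on DC 2, since 256 genes were called without it and 1519 without DC 1, and it was 594 without Si8 2. DESeq2 called 342, all of them among the 1201. Of 95 called genes given by the selection described at the end, 52 kept their call in DESeq2 and 43 did not.

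**Figure D3:**
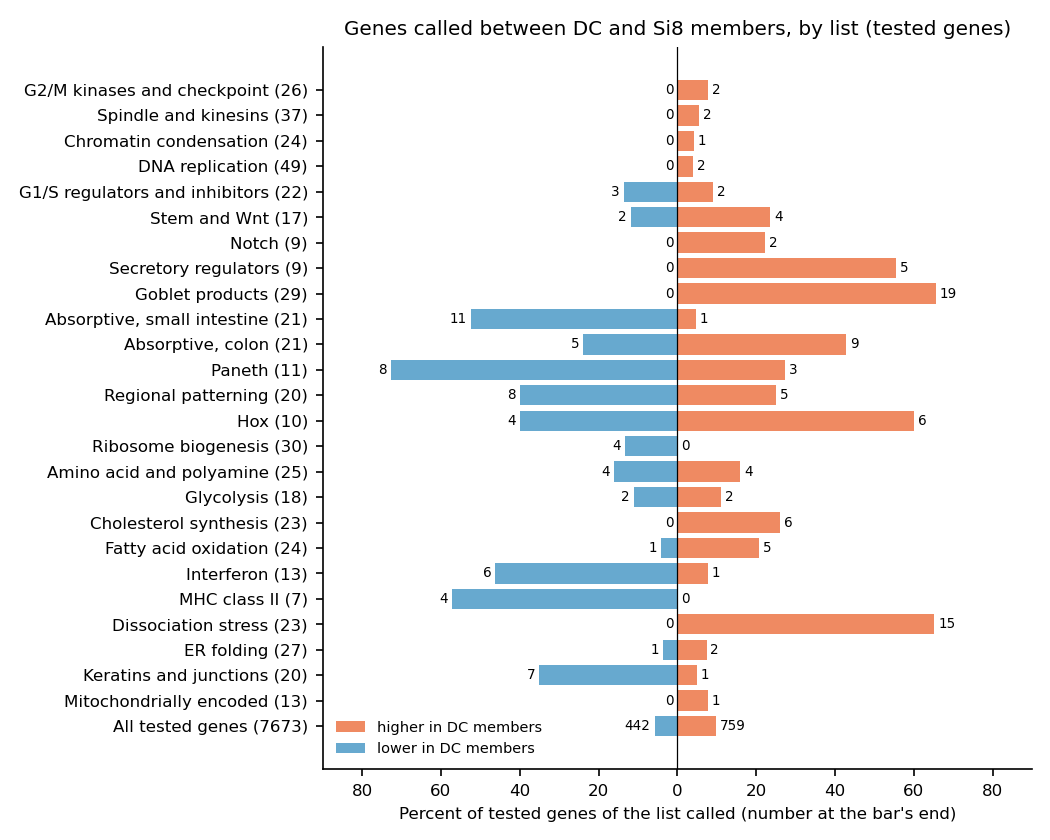
Percent of the tested genes of each list called between DC and Si8 members, to the right where higher in DC members and to the left where lower, with the number of called genes at the end of each bar and the number tested in brackets. Hox genes and Paneth genes have every tested gene called, cell division lists have 4.08% to 7.69% called, and all tested genes 15.7%.

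Genes of position along the gut differed between the members of the 2 regions. All 10 tested Hox genes were called, 6 higher and 4 lower in DC. Hoxb13, the most posterior gene of the Hoxb cluster (chr11:96194316-96197447 in GRCm38, plus strand), had 342 and 425 CPM in DC members, against 0 and 0 in Si8 members. Its UMIs were in 6 of 8 and 79 of 83 DC members, and the 0 in Si8 allows up to 0.688 CPM, so it was at least 557-fold higher in DC (edgeR adjusted p = 4.68e-13). Hoxa9 had 75.9 and 47.7 CPM in DC, against 0 and 0 in Si8, at least 89.9-fold higher. Hoxb7 and Hoxb6 went the other way. They were at 0 in both DC libraries, against 50.2 and 41.1 CPM for Hoxb7 and 29.8 and 24.7 CPM for Hoxb6 in Si8. DC levels were lower by at least 17.5-fold for Hoxb7 and 10.4-fold for Hoxb6. Both lost their calls without DC 2 (adjusted p = 0.14 for Hoxb7 and 0.32 for Hoxb6), where only 1 Hox gene was called in all.

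Cdx2, the homeobox factor that sets intestinal identity (chr5:147300805-147307270, minus strand), was low in DC members. It had 0 and 16.8 CPM in DC, against 199 and 165 CPM in Si8, a log2 difference of -3.50 ± 0.35 (SE; adjusted p = 1.05e-07). It was detected in 0 of 8 and 13 of 83 DC members, against 24 of 27 and 144 of 161 Si8 members. Its relative Cdx1 had 139 and 205 CPM in DC, against 325 and 246 in Si8, and was not called (-0.54 ± 0.24, adjusted p = 0.146). The regional list had 20 tested genes, with 5 higher and 8 lower in DC. Among those higher in DC was Foxd2, a forkhead factor, with 63.3 and 32.7 CPM, against 0 and 0 in Si8. Foxp1, another forkhead factor, had 380 and 259 CPM in DC, against 86.3 and 79.5 in Si8 (1.84, adjusted p = 3.55e-06). Nfia and Pparg were also higher, at 1.33 and 1.89.

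The lower genes of the regional list were led by Osr2, an odd-skipped factor, and Isx, a homeobox repressor of vitamin A uptake. Osr2 was at 0 in both DC libraries, against 137 and 101 CPM in Si8, so DC was lower by at least 45.4-fold. Isx was likewise at 0, against 75.4 and 67.1 CPM in Si8, lower in DC by at least 27.3-fold. Nr1h4, the bile acid receptor, had 0 and 6.55 CPM in DC, against 83.2 and 39.5 in Si8. Hnf4g (-1.75) and Bcl11b (-1.34) were lower too, while Hnf4a, Gata6 and Klf5 did not pass. Without DC 2 the calls of Nr1h4, Hnf4g, Bcl11b and Pparg were lost (adjusted p = 0.16 to 0.83), and 3 genes of the list were called in each direction. Pparg was also lost without Si8 2 (0.22).

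**Figure D4:**
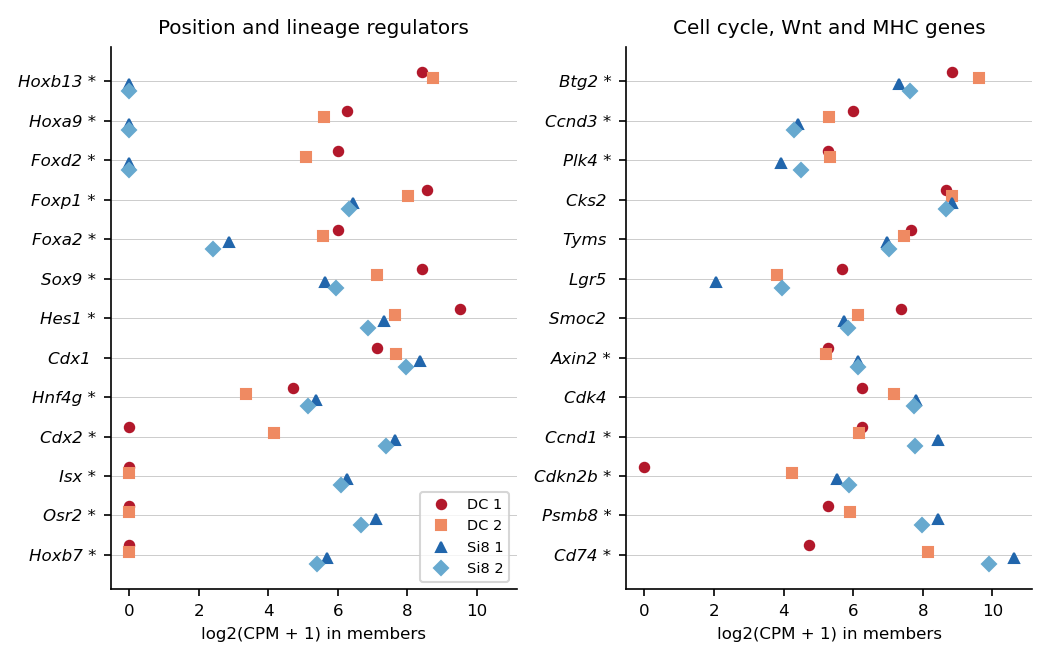
Level of 26 genes in members as log2(CPM + 1), 1 point per library, with DC as circles and squares and Si8 as triangles and diamonds; an asterisk marks an adjusted p under 0.05 in edgeR's quasi-likelihood test. Hoxb13 stands at 342 and 425 CPM in DC, against 0 and 0 in Si8, Cdx2 at 0 and 16.8 in DC, against 199 and 165 in Si8, and the G2/M gene Cks2 at 405 and 458 in DC, against 460 and 402 in Si8.

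The division machinery outside the rule showed few differences between the regions. Of 26 tested G2/M kinase and checkpoint genes 2 were higher in DC and none lower, with a median log2 difference of 0.03. Of 37 spindle and kinesin genes 2 were higher (median 0.31), of 24 chromatin condensation genes 1 (-0.06), and of 49 DNA replication genes 2 (0.20). These shares lie under the 15.7% of all tested genes, whose median was -0.003. Since rule and lists share the mitotic state, the members had to carry these genes in both regions. Cks2, a partner of Cdk1, had 405 and 458 CPM in DC, against 460 and 402 in Si8 (0.06 ± 0.21, adjusted p = 0.908). Tyms, which makes thymidylate for replication, had 203 and 175 CPM in DC, against 126 and 130 in Si8, and was not called (adjusted p = 0.144).

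Of the called division genes, 6 are named here, with log2 differences of 0.90 to 1.70. Plk4, the kinase that licenses centriole copying, had 38.0 and 39.3 CPM in DC, against 14.1 and 21.7 in Si8 (0.97 ± 0.33, adjusted p = 0.0484). Ncapg2, a condensin subunit, had 25.3 and 44.0 CPM in DC, against 12.6 and 13.2 in Si8 (1.70 ± 0.34, adjusted p = 0.00076). Kif20a, a kinesin of cytokinesis, Nuf2, a kinetochore protein, Pola1, a DNA polymerase subunit, and Clspn, a checkpoint adaptor, were higher by 0.92, 0.99, 1.18 and 0.90. Nuf2 overlapped between the regions, with 12.7 and 44.0 CPM in DC and 23.5 and 20.1 in Si8. Without DC 2 none of these 6 genes was called (adjusted p = 0.59 to 0.89). Plk4, Kif20a and Clspn were also lost without Si8 1 (0.096 to 0.20), and Nuf2, Kif20a, Pola1 and Clspn without Si8 2 (0.05 to 0.27). When all cells were thinned to 5000 UMIs and the rule was applied again, 7 spindle genes were called higher. That setting held 105 and 499 cells in DC, against 80 and 393 in Si8, and so many cells that are not members here.

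Of 22 tested G1/S regulators and inhibitors, which govern entry into the cycle, 2 were higher and 3 lower in DC (median 0.16), a share of 22.7% against the 15.7% of all tested genes. Ccnd1, a cyclin that starts the cycle and a Wnt target, had 75.9 and 71.1 CPM in DC, against 347 and 220 in Si8 (-1.91 ± 0.28, adjusted p = 2.2e-05). Btg2, an antiproliferative gene, had 456 and 779 CPM in DC, against 157 and 196 in Si8 (1.90 ± 0.24, adjusted p = 3.95e-06). Both were without overlap and called without any 1 library. Ccnd3, another D cyclin, was higher in DC, with 63.3 and 38.4 CPM against 20.4 and 18.5 in Si8. Cdkn2b, an inhibitor of the cyclin D kinases, had 0 and 17.8 CPM in DC, against 45.5 and 57.5 in Si8. These 2 were lost without DC 2 (adjusted p = 0.30 for Ccnd3 and 0.074 for Cdkn2b), and Ccnd3 without Si8 2 (0.16). Btg2 is also on the dissociation list described below.

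Stem cell and Wnt genes did not move as 1 group. Of 33 listed genes 17 were tested, with 4 higher and 2 lower in DC (median 0.17), and the summed level of the list was 1481 and 921 CPM in DC, against 876 and 833 in Si8. Sox9, a factor of the crypt base and a Wnt target (chr11:112782224-112787760, plus strand), had 342 and 139 CPM in DC, against 48.7 and 60.7 in Si8 (1.66 ± 0.29, adjusted p = 0.000214). DC 1 was the higher of the DC libraries, and without DC 2 the difference was 2.54. Lrig1, which marks slowly cycling stem cells, had 139 and 64.6 CPM in DC, against 28.3 and 33.8 in Si8 (1.19 ± 0.29, adjusted p = 0.00597). The difference was 2.05 without DC 2, and DESeq2 did not call the gene. Aqp4, a water channel, was higher at 1.59, and Tcf7l2, the DNA-binding partner of beta-catenin, at 0.83 with an adjusted p of 0.0479. Tcf7l2 was lost without any of the 4 libraries (0.056 to 0.51), and Aqp4 without DC 2 (0.75) and without Si8 2 (0.099).

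Axin2, a feedback inhibitor and common Wnt readout, was lower in DC, with 38.0 and 36.5 CPM against 69.1 and 69.0 in Si8 (-0.89 ± 0.28, adjusted p = 0.0312). That call was lost without DC 2 (adjusted p = 0.56), without Si8 1 (0.13) and without Si8 2 (0.25). Prom1 was called lower at -1.30 although the regions overlapped, with 101 and 18.7 CPM in DC and 67.5 and 63.6 in Si8, and it stood at 0.60 without DC 2. Lgr5, the receptor that marks crypt stem cells, had 50.6 and 13.1 CPM in DC, against 3.14 and 14.5 in Si8 (0.39 ± 0.52, adjusted p = 0.694). It was found in 3 of 8 and 10 of 83 DC members, against 1 of 27 and 25 of 161 Si8 members. Olfm4, a stem cell marker of the mouse small intestine, had 0 UMIs in DC members, which allows up to 2.61 CPM, against 7.85 and 5.91 CPM in Si8. Smoc2, Slc12a2, Myc, Cd44, Ephb2 and Rnf43 were not called.

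Among Notch genes 2 of 9 tested were higher in DC and none lower, a share of 22.2% against the 15.7% of all tested genes. Hes1, the repressor that Notch induces (chr16:30064384-30067796, plus strand), had 734 and 198 CPM in DC, against 159 and 115 in Si8 (1.41 ± 0.36, adjusted p = 0.00885). The difference was 0.60 without DC 1 and 2.44 without DC 2, and DESeq2 and members with 0 factor UMIs did not give the call. Dll1, a ligand that secretory progenitors present, had 12.7 and 14.0 CPM in DC, against 1.57 and 5.64 in Si8 (adjusted p = 0.0454), and it was not called without DC 1 (0.116), without Si8 1 (0.246), in DESeq2, in edgeR's newer fit (0.055), under 2 other scalings (0.059 and 0.0615), with no filter on low counts (0.128) or at a mitotic threshold of 3 (0.0813). After thinning it stood at -0.15. Notch1 had 25.3 and 17.8 CPM in DC, against 25.1 and 22.3 in Si8, and Hes6 101 and 85.1, against 53.4 and 56.1. Neither was called.

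Secretory regulators other than the 3 of the rule were higher in DC members. Of 9 tested genes 5 were higher and none lower, with a median of 1.18. Foxa2, a forkhead factor of secretory epithelia, had 63.3 and 46.8 CPM in DC, against 6.28 and 4.30 in Si8 (3.38 ± 0.38, adjusted p = 5.86e-07). Foxa1 had 63.3 and 61.7 CPM against 23.5 and 24.97 in Si8, and Foxa3 50.6 and 35.6 against 12.6 and 17.5. Klf4, a factor of goblet differentiation, had 101 and 209 CPM in DC, against 51.8 and 61.8 in Si8, and Rab3d, a GTPase of secretory granules, 50.6 and 85.1 against 10.99 and 26.0. All 5 were without overlap between the regions, as were 53.0% of all tested genes. Foxa1, Foxa3 and Rab3d were not called in DESeq2, and Foxa3 was not called after thinning either. Xbp1, a factor of the unfolded protein response, had 101 and 119 CPM in DC, against 165 and 116 in Si8, and Sox4 50.6 and 58.9 against 51.8 and 49.9, neither of them called. Without DC 2 only Foxa2 was still called, and the other 4 had adjusted p = 0.40 to 0.56. Foxa3 was also lost without Si8 1 (0.052). Of the rule's factors, Creb3l1 had 25.3 and 37.4 CPM in DC, against 7.85 and 5.91 in Si8, within what the rule allows.

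Goblet products were also higher in DC members, 19 of 29 tested genes with none lower and a median of 1.47. Their summed level was 36782 and 27707 CPM in DC, against 6871 and 12212 in Si8. The sum of DC 1 rested in large part on a single member, as the ranges over members below show. That sum was not tested without the cell. Sval1, a secreted protein of the seminal vesicle antigen family, had 1367 and 1381 CPM in DC, against 4.71 and 7.25 in Si8 (7.65 ± 0.30, adjusted p = 9.14e-14). In DC 1 a single member held 85 of its 108 UMIs, and without it the level was 335 CPM. Agr2 had 2139 and 3260 CPM in DC, against 757 and 1219 in Si8 (1.47). Muc2, the main gel-forming mucin, had 1063 and 1445 CPM in DC, against 579 and 813 in Si8 (0.88, adjusted p = 0.00895). It was not called at a mitotic threshold of 10 (0.44, adjusted p = 0.572), in DESeq2 (0.0551) or in edgeR's newer fit (0.0553). Muc2 lost its call without DC 2 (0.276) and without Si8 1 (0.336), and 1 DC 1 member held 58 of its 84 UMIs there, without which DC 1 was at 379 CPM, below both Si8 libraries. Mptx1, a pentraxin, had 15556 and 3975 CPM in DC, against 0 and 0.805 in Si8, a pooled ratio of 6938 (95% counting interval 2373 to 33655). In DC 1 a single member held 1077 of its 1229 UMIs, and without that cell the level was 2215 CPM. UMIs of Mptx1 were in 8 of 8 and 83 of 83 DC members, and those of Sval1 in 6 of 8 and 80 of 83. How much free RNA in the droplets adds to these DC levels was not tested. Tff3, a trefoil peptide, had 1519 and 1927 CPM in DC, against 2093 and 3406 in Si8 (-0.65, adjusted p = 0.0723). Tff3 was called lower in DC without Si8 1 (-1.03, adjusted p = 0.00465), at a mitotic threshold of 10 (-1.61, adjusted p = 0.0128) and after thinning (-2.40, adjusted p = 3.79e-08), and stood at 0.42 at a threshold of 3. Zg16 and Fcgbp were not called. The count of higher genes was 11 without DC 2. With cells thinned to 5000 UMIs, where the rule admits many more cells, it was 10 higher and 14 lower, with Agr2 at -0.60 and Muc2 at -0.69, so the direction of the list depends on the depth at which the rule is applied.

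Within a library, members varied widely in goblet products. The list took a median of 170 and 126 UMIs per 10000 of a member in DC, against 42.4 and 78.3 in Si8, with ranges of 54.6 to 1841 in DC 1, 46.8 to 3617 in DC 2, 29.6 to 405 in Si8 1 and 44.3 to 1469 in Si8 2. At least 500 per 10000 was reached by 1 of 8 and 17 of 83 members in DC, against 0 of 27 and 12 of 161 in Si8. In DC 1 the next highest member stood at 480, so the top cell weighs heavily on the summed level of DC 1 given above. The medians were still higher in both DC libraries than in both Si8 libraries. On the Paneth list, the highest member of Si8 2 stood at 2682 per 10000, against 575 and 560 for the next and a median of 27.9. Whether such members are Paneth cells or doublets was not tested. Across members, the goblet list and the Paneth list ran together, with a Spearman's rho of 0.86 in DC 2, 0.70 in Si8 1 and 0.68 in Si8 2. The goblet list and the stem and Wnt list did not (-0.21, -0.14 and -0.02). DNA replication and spindle genes were weakly related, at 0.35, 0.04 and 0.20. These are descriptions over 83, 27 and 161 cells that share library, depth and free RNA.

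The step from mitotic cells with factors to members was smaller for goblet products in DC than in Si8. Mitotic cells with factors had 54611 and 46374 CPM of the list in DC, against 87001 and 71953 in Si8. The difference of the 2 steps was tested as the interaction of region and class, with library as a block, in edgeR's quasi-likelihood test over 10787 genes. It was called for 227 genes (2.1%), 210 positive (1.95%) and 17 negative (0.158%), where positive means that members kept more of the gene in DC than in Si8. Of 35 goblet products 28 were positive and none negative, with a median of 2.04 against -0.02 over all tested genes. The number was 15 without DC 2 and 22 without Si8 2, and it was 22 in members with 0 factor UMIs, 19 of 34 after thinning to 5000 UMIs and 20 in edgeR's newer fit. All 227 calls became 74 without DC 2, 113 without Si8 1 and 89 without Si8 2.

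The median member had 170 and 126 UMIs per 10000 of the goblet list in DC, against 504 and 464 in DC mitotic cells with factors, and 42.4 and 78.3 in Si8, against 793 and 661 in Si8 mitotic cells with factors. For Zg16, a lectin that binds bacteria in mucus, members had 2367 and 1774 CPM in DC, where mitotic cells with factors had 660 and 1268, and 980 and 2384 CPM in Si8, where those cells had 9509 and 8492. The interaction was 3.69 ± 0.15 (adjusted p = 1.38e-127). The sums of DC members lay above those of mitotic cells with factors through single cells, since 1 member held 174 of the 187 Zg16 UMIs in DC 1 and another 629 of the 1896 in DC 2. Without that cell the members stood at 189 and 1189 CPM in DC, below mitotic cells with factors in both libraries. After thinning, the interaction was 0.28 and not called. Tff3 had 1519 and 1927 CPM in DC members, against 5345 and 3044 in DC mitotic cells with factors, and 2093 and 3406 in Si8 members, against 28378 and 22065 in Si8 mitotic cells with factors. Fcgbp, a mucus protein that binds Muc2, had 683 and 483 CPM in DC members, against 581 and 467 with factors, and 462 and 660 in Si8 members, against 2493 and 2167 with factors. Members were shallower than mitotic cells with factors in all 4 libraries, and mitotic cells with factors had medians of 20376 and 18284.5 UMIs in DC, against 27635 and 29517.5 in Si8. The part of depth in this difference was not tested beyond the thinning.

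**Figure D5:**
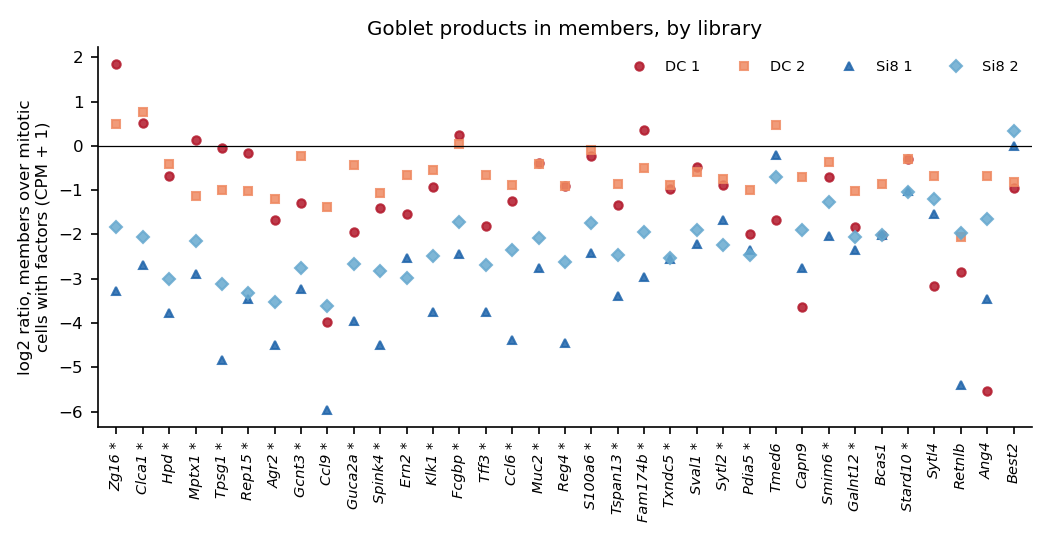
Ratio of members over mitotic cells with factors for 35 goblet products, as log2 of (CPM + 1), 1 point per library; an asterisk marks an adjusted p under 0.05 for the interaction of region and class. For Zg16 the DC points lie above 0 (2367 over 660 and 1774 over 1268 CPM), where without the top cell of each library members had 189 and 1189 CPM, and the Si8 points lie below it (980 over 9509 and 2384 over 8492 CPM).

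Secretory regulators and MHC class II genes were also among the positive interactions. Of 12 tested secretory regulators 4 were positive, a number that was 0 without DC 2 and 0 in edgeR's newer fit. Of 8 MHC class II genes 5 were positive, among them H2-Aa at 4.87, H2-Ab1 at 4.16, H2-Eb1 at 3.99 and Cd74 at 3.90. These rested on the single DC 2 member with immune markers, which held 171 of the 171 UMIs of H2-Aa in DC 2 members, 218 of 225 of H2-Ab1, 98 of 100 of H2-Eb1 and 299 of 305 of Cd74. Without that cell no gene of the list was positive, and without DC 2 none either. Reg3g (7.55) rested on 29 UMIs in 1 other DC 2 member. Negative interactions were led by genes near the counting limit in DC members, such as Chga at 0 and 0.936 CPM and Chgb at 0 and 1.87 CPM, both products of enteroendocrine granules. Without Si8 2, which held 57 of the 60 Chga UMIs and all 151 Chgb UMIs of Si8 members, neither was called, and Chgb stood at 0.11.

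Small intestinal absorptive genes were low in DC members. Of 21 tested genes 1 was higher and 11 were lower, and the summed level was 797 and 1038 CPM in DC, against 36807 and 16189 in Si8. Reg3b, an antimicrobial lectin, had 0 UMIs in DC, against 18212 and 3577 CPM in Si8, so DC was lower by at least 4169-fold. Reg3g, its close relative, had 0 and 27.1 CPM in DC, against 11410 and 3589 in Si8, and reads of the 2 genes may be split between them. Lgals2, a galectin, had 25.3 and 2.81 CPM in DC, against 4157 and 4651 in Si8 (-9.87 ± 0.44). Cbr1, a carbonyl reductase, was higher in DC, with 165 and 261 CPM against 65.9 and 61.5 in Si8 (1.94), a call lost without DC 2 (adjusted p = 0.087). Outside the list, Tmem252 was at 0 in DC, against 100 and 47.5 CPM in Si8, and was lost without DC 2 as well (0.11). As shown above, Reg3b was in nearly all Si8 droplets, so its level in Si8 members includes free RNA by an amount that was not tested.

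All 11 tested Paneth genes were called, 8 lower and 3 higher in DC. Among the lower genes, the alpha-defensins Defa24, Defa20, Defa22, Defa21 and Defa17 were at 0 in DC members. In Si8 members, Defa24 had 295 and 1503 CPM and Defa20 62.8 and 493 CPM, so DC was lower by at least 344-fold for Defa24 and 106-fold for Defa20. In Si8 2 the top member for each gene held 1188 of 5597 Defa24 UMIs and 293 of 1836 Defa20 UMIs. Without the top member the levels there were 1187 and 415 CPM, and the bounds above include it. The alpha-defensins are near-identical copies, between which reads cannot be assigned with certainty, and Defa22, Defa21 and Defa17 lost their calls without DC 2 (adjusted p = 0.075 to 0.28). Higher in DC were Nupr1, a stress-induced chromatin protein, with 443 and 476 CPM against 44.0 and 26.3 in Si8 (3.90), and Clps, pancreatic colipase, with 101 and 82.3 against 3.14 and 7.79 (3.59). Defensin UMIs were found in 10 of 11 and 10 of 10 of the cells with tuft markers in Si8, so the limit from free RNA applies to the defensin levels too. Of the enteroendocrine list 2 genes were tested, with Bex2 higher (2.95) and Sct, secretin, lower (-3.42). A single Si8 2 member held 82 of the 165 Sct UMIs there, without which the level was 22.6 CPM. Sct was lost without DC 2 (0.23) and without Si8 2 (0.28).

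Colonic absorptive and ion-handling genes moved in both directions, with 9 of 21 tested genes higher in DC members, 5 lower and 7 not called (median 0.34). Car2, a carbonic anhydrase, had 367 and 414 CPM in DC, against 0 and 0 in Si8, at least 568-fold higher. Nxpe4 had 75.9 and 61.7 CPM in DC, at least 100.1-fold higher against 0 in Si8. Outside the list, several genes were called with the same pattern. Nxpe2 had 88.6 and 174 CPM in DC, at least 191-fold higher against 0 in Si8. Fut9, a fucosyltransferase, was at 114 and 83.3 CPM in DC (at least 143-fold higher), Nov, a matricellular protein, at 38.0 and 89.8 (at least 92.9-fold), and Tspan33, a tetraspanin, at 63.3 and 44.9 (at least 78.7-fold), with 0 in Si8 for all. St6galnac6, a sialyltransferase, had 329 and 369 CPM in DC, against 0 and 0.537 in Si8, a pooled ratio of 798 (220 to 6611). Anxa1, an annexin, had 88.6 and 96.4, against 1.57 and 0, a pooled ratio of 418 (73.5 to 16657). Sycn, a zymogen granule protein, had 380 and 830 CPM in DC, against 0 and 2.42 in Si8 (8.31). Krt20, a keratin of mature surface cells, was lower, with 12.7 and 10.3 CPM in DC, against 62.8 and 76.0 in Si8 (-2.75), and it lost its call without DC 2 (adjusted p = 0.16).

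Members were also set against non-mitotic cells without factors, which numbered 92 and 456 in DC, against 140 and 170 in Si8. The interaction of region and class was called for 25 of 9237 genes (0.271%), 9 positive (0.0974%) and 16 negative (0.173%), and for none in edgeR's newer fit, where 430 genes had an unadjusted p under 0.05. Without DC 2 it was called for 1 gene, without DC 1 for 10, without Si8 1 for 82 and without Si8 2 for 131. The negative genes named here were high in the DC non-mitotic cells alone. Prdx6, a peroxiredoxin, had 88.6 and 219 CPM in DC members, against 3385 and 2384 in DC non-mitotic cells, and 328 and 320 in Si8 members, against 237 and 363 in Si8 non-mitotic cells. Slc26a3, the chloride-bicarbonate exchanger of colonic absorptive cells, had 0 and 4.68 CPM in DC members, against 483 and 324 in DC non-mitotic cells, and 26.7 and 22.0 in Si8 members, against 31.9 and 62.2. Car4, a membrane carbonic anhydrase, had 0 and 4.68 in DC members, against 1018 and 415, and Slc20a1, a phosphate transporter, 0 and 28.1, against 351 and 273. Median depth of the non-mitotic cells was 4935 and 8946.5 UMIs in DC, against 5862 and 19642.5 in Si8.

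Antigen presentation genes were low in DC members. Of 7 tested MHC class II genes 4 were lower and none higher, and of 13 interferon genes 6 were lower and 1 higher. Cd74, the invariant chain, had 25.3 and 285 CPM in DC, against 1559 and 963 in Si8 (-2.49 ± 0.36, adjusted p = 1.88e-05). It was found in 1 of 8 and 4 of 83 DC members, against 27 of 27 and 159 of 161 Si8 members. The difference was -5.65 without DC 2 and -7.37 without the immune-marked DC 2 member. DESeq2 (-2.97, adjusted p = 0.36) and members with 0 factor UMIs (-0.85, adjusted p = 0.287), both with that member, did not give the call, nor did a limit of 0.5 factor UMIs per 10000 (-1.63, adjusted p = 0.0562). H2-DMa, which loads peptides, had 0 and 6.55 CPM in DC, against 115 and 77.1 in Si8 (-3.84), with -10.04 without DC 2 and -9.93 without that member. H2-Aa had 0 and 160 CPM in DC, against 254 and 191 in Si8, and was not called (-0.71), with all of its DC 2 UMIs in the immune-marked cell. Without that cell it was lower and called, as were H2-Ab1 and H2-Eb1 (-11.21, -5.87 and -7.09, the first of them against 0 UMIs in DC and so no bound). Psmb8 and Psmb9, subunits of the immunoproteasome, had 38.0 and 58.9, and 38.0 and 43.0 CPM in DC, against 342 and 252, and 155 and 140 in Si8. Isg20, an interferon-induced exonuclease, was higher, with 50.6 and 36.5 CPM in DC, against 1.57 and 3.76 in Si8 (3.45). Psmb9 and Isg20 lost their calls without DC 2 (adjusted p = 0.069 and 0.071).

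Genes known to be induced by tissue dissociation were higher in DC members, 15 of 23 tested with none lower (median 0.94). Their summed level was 12354 and 15181 CPM in DC, against 8619 and 8427 in Si8. In mitotic cells with factors it was 17088 and 14506 in DC, against 8870 and 8821 in Si8, so the same step between regions was present there. Nr4a1, an immediate early nuclear receptor, had 418 and 475 CPM in DC, against 44.0 and 36.2 in Si8 (3.57 ± 0.24, adjusted p = 2.34e-10). Fos had 2734 and 2108, against 917 and 826 (1.47), and Atf3 1051 and 1411, against 309 and 297 (2.07). Klf2 was higher at 3.44, with an adjusted p of 0.32 without DC 2. The list's count was 6 higher and 2 lower without DC 2. Hspa8, a constitutive chaperone, was not called (-0.44). The part of this list in other differences, Btg2 included, was not tested.

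Biosynthetic lists differed in single enzymes. Cholesterol synthesis had 6 of 23 genes higher and none lower (median 0.57), led by Insig1, which holds the sterol sensor in the ER, with 88.6 and 88.9 CPM in DC, against 31.4 and 33.0 in Si8 (1.46), and Cyp51, a demethylase of sterol synthesis (1.10). The count was 0 in DESeq2, 1 without DC 2, 1 without Si8 1 and 2 without Si8 2, and Insig1 had an adjusted p of 0.26 without DC 2. Cyp51 was lost without DC 2 (0.39), Si8 1 (0.083) or Si8 2 (0.071). Glul, glutamine synthetase, had 380 and 271 CPM in DC, against 33.0 and 36.0 in Si8 (3.09), and Oat, ornithine aminotransferase, 139 and 139, against 498 and 656 (-2.04). Acsl3, which activates fatty acids, had 165 and 138, against 22.0 and 23.4 (2.63). Ldha, lactate dehydrogenase, had 329 and 467, against 939 and 790 (-1.01), with an adjusted p of 0.05 without Si8 1. Of 30 ribosome biogenesis genes 4 were lower and none higher, with Bop1 at 12.7 and 17.8 CPM in DC, against 47.1 and 44.8 in Si8 (-1.36), and an adjusted p of 0.41 without DC 2. Npm1, the most abundant of the ribosome biogenesis genes, was not called. The share called was 26.1% for cholesterol synthesis, 13.3% for ribosome biogenesis and 7.69% for mitochondrially encoded genes, against 15.7% of all tested genes. Of 13 mitochondrially encoded genes 1 was higher, mt-Co1 at 0.73, lost without DC 1 (0.39), DC 2 (0.11) or Si8 1 (0.26).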

How the data were processed

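The RNA of single cells was captured in droplets in 4 libraries (3′ v2 chemistry, per the labels). The deposited values are raw UMI counts per gene and barcode, not normalized, and the submitters' processing notes name Cell Ranger 2.1.1 and the mm10 build. Coordinates were taken from GENCODE M21 (GRCm38) by Ensembl identifier, where 28341 of 28694 (98.8%) were found. Cells were chosen by the rule given above, counts were summed per library and class, and sums were tested with the edgeR 4.0.16 quasi-likelihood test in R 4.3.3 (TMM factors, genes kept by filterByExpr at min.count 10, calls at a Benjamini-Hochberg adjusted p under 0.05). The labels give no pairing, and the region test had no block. Interactions used library plus class plus their product with region. CPM are scaled to a sum's own total. Floors are 3 UMIs over a region. Doublets were scored with Scrublet (scanpy 1.11.5) and kept, and leaving out the highest scores, at 0.8% of barcodes per 1000 barcodes, was an alternative. DESeq2 1.42.0, other scalings, filters, thresholds, thinning to 5000 UMIs and leaving out each library were tried as alternatives. The tests were tried on simulated data first.

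The members, the gene lists and the tests were chosen with earlier results of these data known, so no list counts as independent evidence. Genes named in the text were, for the region test, the 12 called genes with the largest change in each direction at 50 CPM or more, up to 2 called genes per list and direction at 20 CPM or more with the most abundant gene not called, the stem, Notch, secretory and regional genes at 20 CPM or more, and, for each interaction, up to 6 called genes per direction at 50 CPM or more. Dll1, Olfm4, Fos, Atf3, Agr2, Muc2, Fcgbp, H2-Ab1, H2-Eb1, Cd74 and Zg16 as interaction genes, and the genes named only by symbol, were added after their values were seen. A few genes that the rule names are not reported here.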

Additional observations from a re-analysis of the deposited data

Results flagged for a closer look

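The difference between DC and Si8 members departed from the difference in mitotic cells with factors for 227 genes, and from that in non-mitotic cells without factors for 25 genes, by the interaction term of edgeR's quasi-likelihood test. All values below are that term on the log2 scale, where a positive value means that the gene was higher in members, relative to the other class, in DC than in Si8. No explanation was tested.

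Against mitotic cells with factors, the positive genes singled out were Reg3g (7.55), Slco3a1 (5.47), Fhl1 (5.22), Gcnt2 (5.10), H2-Aa (4.87), Myof (4.30), H2-Ab1 (4.16), H2-Eb1 (3.99), Cd74 (3.90) and Zg16 (3.69). The negative genes were Xrcc4 (-8.71), Chga (-4.54), Chgb (-4.22), Anpep (-3.92), Lyz1 (-3.23), Sars2 (-2.57), Fabp6 (-1.74), Kcnq1ot1 (-1.40), Timm9 (-1.16), Socs2 (-1.08) and Cdo1 (-1.001).

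Against non-mitotic cells without factors, the positive genes were Reg3g (6.25), Spink4 (3.21), Papss2 (2.51), B3gnt7 (2.45), Ccl6 (2.30) and Guca2b (2.16). The negative genes were Chgb (-5.48), Slc26a3 (-5.12), Car4 (-4.45), Prdx6 (-4.04), Slc20a1 (-3.72) and Eno3 (-3.49).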

How the results depend on the processing

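The lower share of members among mitotic cells in DC kept its direction in all settings run, between -10.4 points with 0 factor UMIs and -22.1 points without Si8 1. The 1201 genes called between regions became 342 in DESeq2, 438 with 0 factor UMIs, 684 with a wider list of secretory genes and 636 with at most 0.5 factor UMIs per 10000, and 256 to 1519 when 1 library was left out. The 227 interactions with mitotic cells with factors became 139 at a mitotic threshold of 10 per 10000, 80 with 0 factor UMIs, 126 with the wider list, 139 after thinning, 117 with at most 0.5 factor UMIs per 10000 and 81 in the newer fit, and 74 to 306 when 1 library was left out. The 25 interactions with non-mitotic cells became 44 with library totals alone, 50 with no count filter, 82 and 41 at mitotic thresholds of 10 and 3, 10 with 0 factor UMIs, 329 after thinning, 42 at 10% mitochondrial UMIs, 121 with at most 0.5 factor UMIs per 10000 and 0 in the newer fit, and 1 to 131 when 1 library was left out. The cause was not tested. The limit of 0.5 per 10000, the newer fit and the removal of the immune-marked member were chosen after seeing the data.

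Of 171 results on single genes, 66 kept their side of the threshold and their direction in all settings run, and 16 reversed at least once. That tally leaves out 7 genes called between regions that the text names after their values were seen. Of these, Agr2 (-0.60), Muc2 (-0.69) and Dll1 (-0.15) reversed after thinning, and H2-Ab1 (0.19) and H2-Eb1 (0.05) with 0 factor UMIs. Without DC 2, Nuf2 stood at -0.76, Prom1 at 0.60, and as interactions with mitotic cells with factors Reg3g at -0.11, Slco3a1 at -2.76, Gcnt2 at -2.94, H2-Aa at -3.91, Myof at -3.99 and H2-Eb1 at -4.45. Without the immune-marked member, Slco3a1 stood at -0.87, Gcnt2 at -3.64, H2-Aa at -7.89, H2-Ab1 at -0.58, H2-Eb1 at -1.59 and Cd74 at -1.22. At a mitotic threshold of 10, which that member does not reach, they stood at -0.82, -3.60, -7.48, -0.98, -1.29 and -0.92 in the same order. With 0 factor UMIs, Reg3g was -6.07, Chgb 1.58 and Anpep 0.57, with the wider list Reg3g was -6.22, and after thinning Xrcc4 was 0.74. Without Si8 2, Chgb was 0.11. As interactions with non-mitotic cells, Reg3g was -1.90 with the wider list, Chgb 1.85 with 0 factor UMIs, and Chgb 0.38 and Eno3 0.85 without Si8 2.

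Over the 4 fits that each leave out 1 library, these genes ran as follows: Nuf2 -0.76 to 1.07, Prom1 -1.78 to 0.60, and against mitotic cells with factors Reg3g -0.11 to 7.65, Slco3a1 -2.76 to 6.86, Gcnt2 -2.94 to 5.29, H2-Aa -3.91 to 4.91, Myof -3.99 to 10.71, Chgb -9.36 to 0.11 and H2-Eb1 -4.45 to 4.08. Against non-mitotic cells, Chgb ran -5.73 to 0.38 and Eno3 -11.61 to 0.85.

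With the replicate number as a block, 1304 genes were called between regions. The deviations of same-numbered libraries had a correlation of 0.000702. With 8 members in DC 1, this value cannot decide whether the numbers pair the libraries. The interactions already hold each library as a block. The 8 members of DC 1 set the depth: 1 UMI there equals 12.7 CPM, and genes under 38.0 CPM rest on fewer than 3 UMIs.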
